A study of Mus musculus with 248 samples.

Results

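Ighm, Igkc, Cd79a and Igll1 encode parts of the antigen receptor of B cells and of its precursor, the pre-B receptor. They are 4 of the 16203 genes tested in single mouse hematopoietic stem cells (HSCs) that were sorted by mitochondrial membrane potential (MMP). The 4 genes were chosen because of their detection in MMP-low and MMP-high cells and their place among the genes of the cell clusters, so the values of both are given as a description. All 4 were found in the MMP comparison, which lists 1868 genes, and all 4 in the cluster comparison, which lists 2887 distinct genes.

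The antigen receptor of a B cell is a membrane immunoglobulin, made of heavy and light chains, that is held in a complex with the signalling proteins CD79A and CD79B. Before a light chain has been made, the mu heavy chain pairs with a surrogate light chain of lambda5, the product of Igll1, and a VpreB protein, and this pre-B receptor marks the passage from pro-B to pre-B cells. These genes are known for the B lineage and are not used to define HSCs. RNA can also be made from a constant region of an immunoglobulin locus that has not been rearranged, and a value per gene does not tell such RNA from that of a finished chain.

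The cells came from C57Bl6 mice with no genetic change or treatment named in the labels. Both groups were sorted as Lin-Sca1+cKit+CD150+CD48-, the surface profile of long-term HSCs, and they differed in the sort for low or high MMP, the voltage across the inner mitochondrial membrane. Each library held the cDNA of 1 cell from a microfluidic chip, with 122 MMP-low and 126 MMP-high libraries. No animal, age or sort is named, so each group counts as 1 sample, no difference has a replicate check, and the p-values printed are the authors' own, from a model of single cells.

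The 2 immunoglobulin constant regions and 1 variable gene of the same kappa locus that shared their pattern are shown by the exons that carry the immunoglobulin fold, which are among the exons that reads of these genes can come from. Ighm, the constant region of the mu heavy chain, lies on the minus strand at chr12:113418558-113422730 of GRCm38 (mm10), and the last 300 bases of its first constant exon span chr12:113422416-113422715. Igkc, the only constant region of the kappa light chain, lies on the plus strand at chr6:70726435-70726966, and the last 300 coding bases of its single exon span chr6:70726455-70726754. Igkv1-135, a kappa variable gene, lies on the plus strand at chr6:67609713-67610508, and the last 300 coding bases of its second exon span chr6:67610209-67610508. Capitals mark the in-frame codons of cysteine. Cysteines form the disulphide bond inside each immunoglobulin domain, but not every marked codon belongs to that bond.
Ighm: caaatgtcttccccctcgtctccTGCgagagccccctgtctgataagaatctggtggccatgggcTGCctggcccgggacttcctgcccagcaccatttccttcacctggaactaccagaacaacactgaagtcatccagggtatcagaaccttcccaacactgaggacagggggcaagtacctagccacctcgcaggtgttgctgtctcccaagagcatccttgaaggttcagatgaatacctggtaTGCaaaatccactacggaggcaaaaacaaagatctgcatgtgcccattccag
Igkc: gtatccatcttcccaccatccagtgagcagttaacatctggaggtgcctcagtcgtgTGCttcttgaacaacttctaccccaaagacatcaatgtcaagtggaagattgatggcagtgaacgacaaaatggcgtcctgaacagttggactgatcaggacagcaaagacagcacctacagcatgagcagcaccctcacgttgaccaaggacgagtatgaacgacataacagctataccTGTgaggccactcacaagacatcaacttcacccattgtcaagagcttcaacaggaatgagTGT
Igkv1-135: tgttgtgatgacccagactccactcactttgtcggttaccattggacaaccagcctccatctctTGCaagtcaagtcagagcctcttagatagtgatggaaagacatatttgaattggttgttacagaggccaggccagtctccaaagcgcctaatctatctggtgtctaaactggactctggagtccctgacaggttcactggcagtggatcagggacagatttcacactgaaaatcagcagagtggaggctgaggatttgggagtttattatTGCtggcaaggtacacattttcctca

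The Ighm exon held 3 cysteine codons, the Igkc exon 3 and the Igkv1-135 exon 2. In Igkc the last codon is one of them, which encodes the cysteine that links the light chain to the heavy chain. The 3 sequences come from the transcripts of GENCODE vM21 on GRCm38, which calls Ighm and Igkc constant and Igkv1-135 a variable immunoglobulin gene.

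Of all stretches of 100 bases, the read length, in the annotated transcripts, 0 of 1787 in Ighm, 0 of 433 in Igkc and 0 of 2160 in Igll1 were also found in a transcript of another gene. In Cd79a, 24 of 1358 (1.77%) were shared with the predicted gene Gm32220. In Igkv1-135, 4 of 295 (1.36%) were shared with another variable gene, Igkv1-131. The Igkc gene overlaps the gene of the long noncoding RNA Gm30211 on the same strand, although 0 of the 433 Igkc stretches were in its annotated transcripts. How the authors counted reads in this overlap is not stated.

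Igll1 and Cd79a are shown by the 250 bases before their RefSeq start, together with Vpreb3, which encodes a VpreB-like protein of pre-B cells and had the same pattern of detection. Igll1 lies on the minus strand at chr16:16860671-16863985, Cd79a on the plus strand at chr7:24897381-24902197 and Vpreb3 on the plus strand at chr10:75943057-75949657. The windows, from RefSeq on GRCm38.p6, are chr7:24897247-24897496 for Cd79a, chr16:16863986-16864235 for Igll1 and chr10:75948050-75948299 for Vpreb3. Against the gene spans just given, the Igll1 window lies directly before the gene. The Cd79a window runs past the start of its span, and the Vpreb3 window lies inside its span. Capitals mark the letters of 4 motifs searched on both strands, the octamer ATGCAAAT, the EBF core CCCNNGGG, the E-box CANNTG and the RUNX core TGTGGT.
Cd79a: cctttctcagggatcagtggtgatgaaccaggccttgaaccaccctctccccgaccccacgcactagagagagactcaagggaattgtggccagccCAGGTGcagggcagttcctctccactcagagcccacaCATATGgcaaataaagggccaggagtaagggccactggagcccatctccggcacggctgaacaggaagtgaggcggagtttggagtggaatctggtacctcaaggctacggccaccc
Igll1: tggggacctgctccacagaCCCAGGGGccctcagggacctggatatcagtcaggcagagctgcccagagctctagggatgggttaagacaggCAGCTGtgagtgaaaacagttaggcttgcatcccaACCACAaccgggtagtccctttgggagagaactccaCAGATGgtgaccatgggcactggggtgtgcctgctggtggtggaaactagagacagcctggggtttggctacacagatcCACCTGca
Vpreb3: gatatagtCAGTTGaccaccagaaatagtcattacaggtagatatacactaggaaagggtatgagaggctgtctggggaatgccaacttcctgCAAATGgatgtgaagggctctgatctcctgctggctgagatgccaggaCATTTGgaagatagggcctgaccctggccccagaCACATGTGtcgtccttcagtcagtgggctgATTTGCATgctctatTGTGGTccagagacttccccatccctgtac

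The Cd79a window held 2 E-boxes, the first of them 154 bases before the start. The Igll1 window held 1 EBF core at 231 bases, 3 E-boxes at 158, 87 and 8 bases and, between the first and the second E-box, 1 RUNX core. In the Vpreb3 window there were 1 octamer at 45 bases, 1 RUNX core at 30 bases and 5 E-boxes, of which the first stands at 242 bases and the last pair, at 75 and 73 bases, overlap each other. Among 27018 windows of the same length, 1.61% held the octamer, 11.7% the EBF core, 14.2% the RUNX core and 66.1% an E-box, so an E-box match is common to most genes. These matches describe letters and show no bound factor. The promoter table had an entry for Cd79a and Igll1 and none for Ighm or Igkc.

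All 4 genes were detected in most MMP-low cells and in 0% of MMP-high cells. Ighm had the highest values, with detection in 70.5% of MMP-low cells against 0% of MMP-high cells and a log fold change of 1.31 toward MMP-low by the authors' deposited table, whose log base is not stated. Igkc followed with 69.5% and 0% of cells and a log fold change of 0.73 by the authors' deposited table. These are the heavy and light chain of the receptor, and their shares of MMP-low cells lay close together while the log fold change of Ighm was the larger.

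The partner genes came next. Igll1, the lambda5 part of the surrogate light chain, was detected in 63.8% of MMP-low cells against 0% of MMP-high cells, with a log fold change of 0.63 by the authors' deposited table. Cd79a, the signalling partner, was detected in 61% and 0% of cells, with a log fold change of 0.50 by the authors' deposited table. By log fold change the 4 genes ranked 14 (Ighm), 63 (Igkc), 91 (Igll1) and 197 (Cd79a) among the 949 genes listed as higher in MMP-low. By p-value the ranks were 4, 9, 47 and 64.

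The adjusted p-values of the 4 genes were 2.5e-23 for Ighm, 7.47e-23 for Igkc, 4.38e-20 for Igll1 and 9.37e-19 for Cd79a by the authors' deposited table. An adjusted p under 0.05 toward MMP-low was given to 539 of the 16203 genes, or 3.33% (a listing without that limit to 949, or 5.86%), and detection in 0% of MMP-high cells was shared by 39 genes, or 0.241%. Since the genes were picked for this contrast, nothing is read from their number against these shares. The number of cells behind a percentage is not stated and was not worked out from the shares, so no interval was computed. The 0% is the authors' figure at a detection limit that no source used here gives.

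Other genes of the receptor did not all share the pattern. Igkv1-135, chosen after its values were seen, was detected in 59% of MMP-low cells against 0% of MMP-high cells, with a log fold change of 0.48 and an adjusted p of 6.92e-18 by the authors' deposited table. Vpreb3 was detected in 56.2% and 0% of cells, with a log fold change of 0.39 and an adjusted p of 1.3e-16 by the authors' deposited table. Cd79b, which encodes the partner of CD79A in the signalling pair, was detected in 97.1% of MMP-low cells against 96.6% of MMP-high cells by the authors' deposited table. Its log fold change was 0.29 toward MMP-low with an adjusted p of 1 by the authors' deposited table, so the CD79 pair was unlike in detection.

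Of the 12 genes of the receptor list, 5 passed the limit of an adjusted p under 0.05 toward MMP-low and 0 toward MMP-high by the authors' deposited table, where the background toward MMP-high was 3.69% of genes tested, or 5.67% counting every listed gene. Without the 4 genes themselves, 8 remained, of which 1 (Vpreb3) passed and 1 (Cd79b) was listed without passing. The other 6 were not listed. They are Ighd, the delta heavy chain, the lambda constant regions Iglc1, Iglc2 and Iglc3, and Vpreb1 and Vpreb2, which encode the VpreB partner of lambda5. The table lists a gene only with a p-value under 0.01 and a log fold change from 0.25 up, so an unlisted gene has no value here and is not shown to be equal or absent. Vpreb1 did stand among the authors' 5624 variable genes, 34.7% of the genes tested, as did all 4 of the genes described here.

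**Figure D1:**
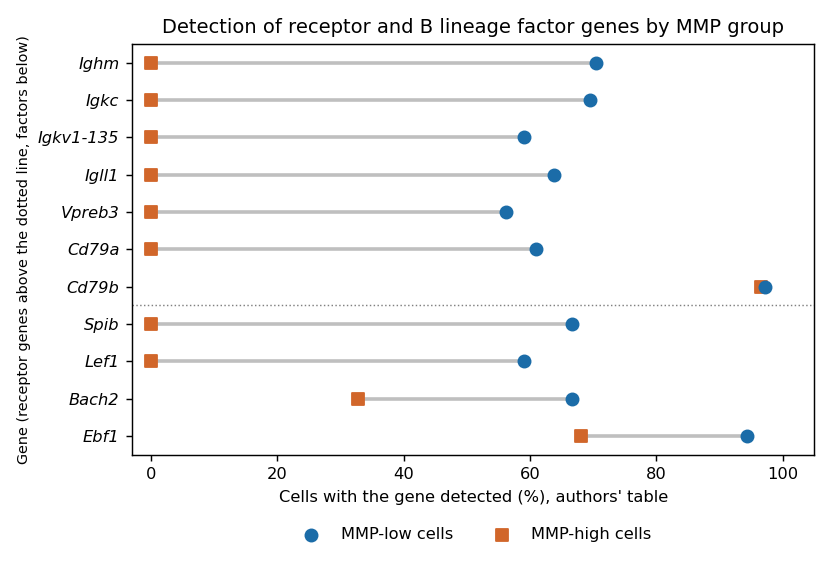
Percent of MMP-low cells (circles) and MMP-high cells (squares) in which each receptor gene (above the dotted line) or B lineage factor (below it) was detected, as the authors deposited it, with 1 sample per group and no error. The 4 genes, Igkv1-135, Vpreb3, Spib and Lef1 sit at 0% of MMP-high cells, while Cd79b sits at 97.1% and 96.6%.

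Transcription factors of the B lineage did not all share it either. Spib, an ETS factor of B and plasmacytoid dendritic cells, was detected in 66.7% of MMP-low cells against 0% of MMP-high cells, with a log fold change of 0.53 and an adjusted p of 1.88e-21 by the authors' deposited table. Lef1, a factor of pro-B and T cell progenitors, was detected in 59% and 0% of cells at a log fold change of 0.42 and an adjusted p of 6.92e-18 by the authors' deposited table. Ebf1, an early B cell factor that is known to act on Cd79a and Igll1, was detected in 94.3% of MMP-low cells against 68.1% of MMP-high cells, with a log fold change of 0.27 and an adjusted p of 1.77e-05 by the authors' deposited table. Bach2, a repressor in B cells, was detected in 66.7% and 32.8% of cells, at 0.79 and an adjusted p of 1.64e-06 by the authors' deposited table. Ebf1 and Cd79b were thus detected in most MMP-high cells and the 4 genes in 0% of them.

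Of 18 factors, 4 passed toward MMP-low and 2 toward MMP-high by the authors' deposited table, against 3.33% and 3.69% of all genes tested. On the MMP-high side the authors' deposited table gave Myb, a factor of progenitors, a log fold change of 0.44 with detection in 98.3% of MMP-high cells against 82.9% of MMP-low cells. For Sox4, a factor of early B cell development, the authors' deposited table gave 0.27 with detection in 79% and 46.7% of cells. Pax5, Tcf3 and Ikzf1, which are needed for B cells, were not listed.

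Of 20 genes of signalling below the receptor, 3 were listed toward MMP-low and 1 toward MMP-high by the authors' deposited table. Among all genes tested, 5.86% and 5.67% were listed. Of the 20, 0 passed toward MMP-low and 1, the kinase Lyn, toward MMP-high. These counts are near the 3.33% and 3.69% of all genes tested that passed, and nothing is read from them. Lyn had detection in 98.3% of MMP-high cells against 43.8% of MMP-low cells, a log fold change of 0.29 and an adjusted p of 0.000101 by the authors' deposited table. Pik3cd, a catalytic subunit of phosphoinositide 3-kinase, Cd81, a tetraspanin, and Ptprc, which encodes CD45, had log fold changes of 0.70, 0.44 and 0.41 toward MMP-low and adjusted p-values of 0.0727, 1 and 1 by the authors' deposited table. Blnk, Btk and Blk were not listed, of which Btk stood among the variable genes.

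Among 14 genes of receptor gene recombination, 1 passed toward MMP-low and 0 toward MMP-high by the authors' deposited table. These counts are near the 3.33% and 3.69% of all genes tested that passed, and nothing is read from them. Xrcc4, which joins DNA ends, was detected in 77.1% of MMP-low cells against 53.8% of MMP-high cells, with a log fold change of 0.30 and an adjusted p of 0.00749 by the authors' deposited table. Xrcc5, the large subunit of the Ku end-binding pair, had 0.33 toward MMP-low, and the chromatin proteins Hmgb1 and Hmgb2, which assist the recombinase, had 0.31 and 0.39 toward MMP-high, with adjusted p-values of 0.665, 0.532 and 1 by the authors' deposited table. Rag1 and Rag2, the recombinase itself, and Dntt, which adds bases at the joints, were not listed.

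Of 12 early lymphoid genes, 3 passed toward MMP-low and 0 toward MMP-high by the authors' deposited table, against 3.33% and 3.69% of all genes tested. For these the authors' deposited table gave log fold changes of 0.60 for Cd52 (88.6% of MMP-low cells against 41.2% of MMP-high cells), 0.53 for Ltb, which encodes lymphotoxin beta (98.1% and 94.1%), and 0.33 for Cd53 (81% and 54.6%). Il7r, the receptor chain for the cytokine that early mouse B cells need, was not listed. Of 15 mature B cell surface genes, 1 passed toward MMP-low and 0 toward MMP-high, which is near those shares. The authors' deposited table gave this gene, Cd74, the invariant chain of class II molecules, a log fold change of 1.08 and an adjusted p of 7.1e-10, with detection in 99% and 100% of cells. Cd24a (0.35 toward MMP-low) and H2-DMa (0.29 toward MMP-high) were listed with adjusted p-values of 1 and 0.0971 by the authors' deposited table, and Ms4a1, which encodes CD20, was not. Of 12 plasma cell genes, 0 were listed in the MMP comparison, where 5.86% of all genes tested were listed toward MMP-low and 5.67% toward MMP-high.

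Over these 7 lists together, 14 genes passed toward MMP-low and 3 toward MMP-high by the authors' deposited table, while 77 were not listed. Of the 14, 7 were detected in 0% of MMP-high cells, and these include the 4 genes by choice. When genes had to be found in over 1% of both groups, 7 remained toward MMP-low and 3 toward MMP-high by the authors' deposited table. The lists were drawn up with results of these cells known.

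**Figure D2:**
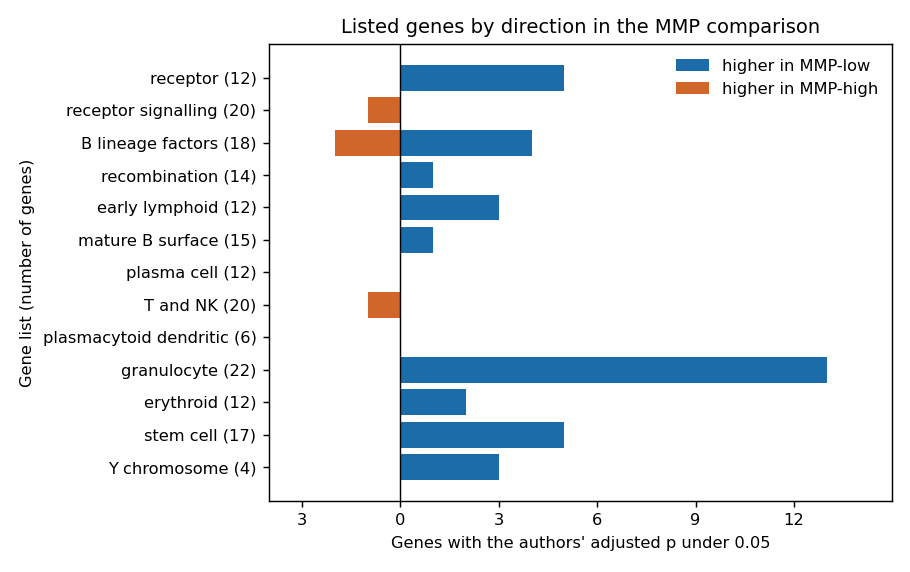
Number of genes per list with the authors' adjusted p under 0.05, to the right for genes higher in MMP-low and to the left for genes higher in MMP-high, with the size of each list in brackets. The receptor list reaches 5 of 12 and the granulocyte list 13 of 22 on the MMP-low side, where 3.33% of all genes tested passed.

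The 4 genes can be set among the 39 that were detected in 0% of MMP-high cells. These 39 were found in 46.7% to 70.5% of MMP-low cells (median 63.8%), with log fold changes of 0.26 to 1.31 (median 0.42) by the authors' deposited table. All 949 genes listed as higher in MMP-low had medians of 84.8% of MMP-low cells, 70.6% of MMP-high cells and a log fold change of 0.36 by the authors' deposited table. Within the 39, Ighm had the largest log fold change, and Igkc, Igll1 and Cd79a ranked 4, 6 and 10. In the other direction, 1 gene, Lrrn4, named after its value was seen, was listed as higher in MMP-high with detection in 0% of MMP-low cells by the authors' deposited table.

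Within these 39 genes the p-values followed detection and not the size of the fold change. The genes were taken at 0% of MMP-high cells, which leaves no level in detecting cells of that group to compare. The pattern therefore describes a set chosen by detection and is no result about these genes. There were 16 distinct shares of MMP-low cells and 16 distinct p-values, and the p-value was lower at each higher share by the authors' deposited table. In 9 instances several genes had the same share, 32 genes together, and every such group had a single p-value by the authors' deposited table. At 70.5% of MMP-low cells, Ighm and 4 other genes shared the p-value 1.54e-27 with log fold changes from 0.47 to 1.31 by the authors' deposited table. At 69.5%, Igkc and 4 other genes shared 4.61e-27 with log fold changes from 0.29 to 0.73 by the authors' deposited table. The order of the 4 genes by p-value is thereby the order of their detection.

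**Figure D3:**
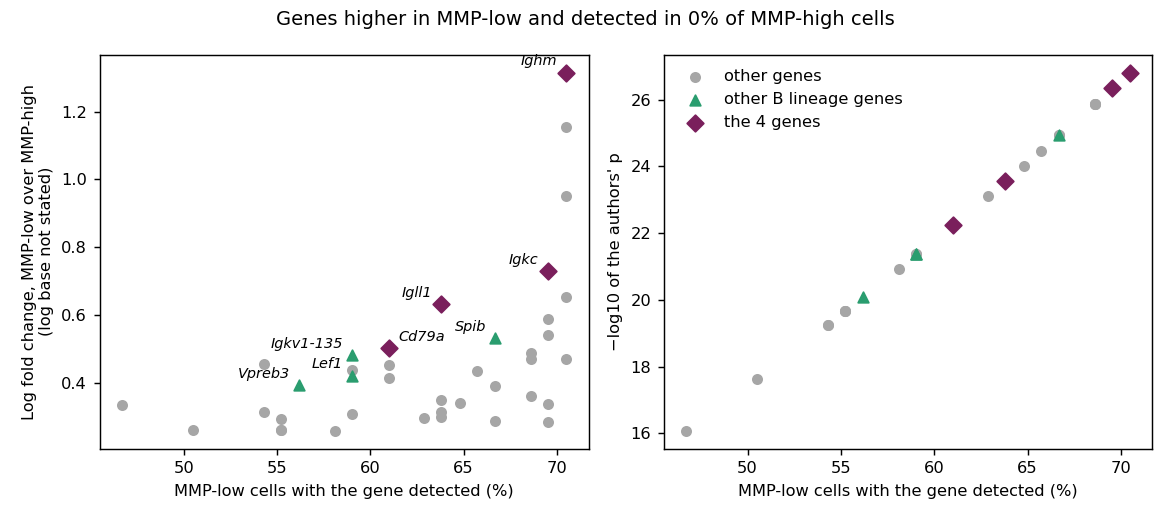
The 39 genes higher in MMP-low with detection in 0% of MMP-high cells, by the percent of MMP-low cells with the gene detected (horizontal axis) against the authors' log fold change (left) and the negative log10 of their p-value (right). Diamonds are Ighm, Igkc, Igll1 and Cd79a, triangles other B lineage genes and circles the rest. The fold changes spread from 0.26 to 1.31, with Ighm on top, while the p-values lie on one curve whatever the gene.

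None of the genes nearest to each of the 4 in percent of MMP-low and MMP-high cells stood in the 7 B lineage lists. Those lists do not hold every gene that B cells express. In the authors' deposited table, the shares of Ighm, 70.5% and 0%, were also those of BC035044 (log fold change 1.15), Lgals3 (0.95), which encodes galectin-3, Mmp8 (0.65), the neutrophil collagenase, and Fgr (0.47), a kinase of myeloid cells. Retnlg, a resistin-like gene, lay 0.8 percentage points away with a log fold change of 1.26 by the authors' deposited table. For Igkc the authors' deposited table held Pld4 (0.59), an exonuclease of lysosomes, P2ry6 (0.54), a nucleotide receptor, Tesk2 (0.34) and Sorl1 (0.29) at the same shares, and Itgb7 (0.64), an integrin chain of lymphocytes, at 0.8 points. With Igll1 the authors' deposited table placed Zfp54 (0.35), Rnd3 (0.31) and F13a1 (0.30), a coagulation factor chain, at the same shares and Pirb and Cd14 at 0.8 points. Beside Cd79a the authors' deposited table placed Chst3 (0.45) and Ifi209 (0.42) at the same shares, Chil1 and Ptgs2 at 1.2 points and Igsf6 at 1.28 points. Equal shares do not show that the same cells held both genes, which a table without values per cell cannot tell.

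All 4 genes were listed for cluster B, and Ighm for cluster A as well. The authors divided the cells into clusters A to E and listed, for each, the genes higher in it than in the cells outside it. Ighm was listed for A and B, while Igkc, Igll1 and Cd79a were listed for B alone, and none of the 4 was listed for C, D or E by the authors' deposited table. A gene not listed for a cluster has no value there, so Ighm is not shown to differ from the other 3 in A. An adjusted p under 0.05 was given to 4.05% of genes tested for A, 1.64% for B, 3.07% for C, 1.86% for D and 1.12% for E, and the shares listed at all were 5.27%, 4.16%, 5.12%, 3.23% and 2.8%. The clusters were made from the same cells and the genes were chosen on this comparison, so the values describe it.

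In cluster A, Ighm was detected in 100% of cells and in 16.2% of those outside, with a log fold change of 0.37 and an adjusted p of 4.22e-28 by the authors' deposited table. It ranked 2 by p-value and 311 by log fold change among the 854 genes listed for A. In cluster B, Ighm was detected in 100% of cells and in 23.5% of those outside, with a log fold change of 1.69 and an adjusted p of 1.85e-11 by the authors' deposited table. There it ranked 6 by p-value and 7 by log fold change among 674 genes. Full detection in both clusters thus went with log fold changes of 0.37 and 1.69. The cells outside A include B and those outside B include A, so these log fold changes have different references.

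Igkc was detected in 96.4% of cluster B and 23.5% of other cells, with a log fold change of 1.17 and an adjusted p of 4.67e-09 by the authors' deposited table. Igll1 was detected in 82.1% and 22.4% of cells, at 1.1 with an adjusted p of 0.000918 by the authors' deposited table. For Cd79a the shares were 82.1% and 20.9%, the log fold change 0.86 and the adjusted p 0.0002 by the authors' deposited table. Each of the 4 genes was thus also found in 20.9% to 23.5% of the cells outside B. Those cells include cluster A, where Ighm was detected in 100% of cells, so its share was not even over the other clusters. For Igkc, Igll1 and Cd79a no share is given for a cluster other than B.

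Igkv1-135 and Vpreb3 were listed for B as well, each in 64.3% of its cells, against 22.4% and 20.9% of other cells. Their log fold changes were 0.85 and 0.72, with an adjusted p of 1 for both and p-values of 0.000764 and 0.00154 by the authors' deposited table. The order of log fold changes, Ighm, Igkc, Igll1, Cd79a, Igkv1-135 and Vpreb3, was the same in B as in the MMP comparison, which draws on the same series of cells and is no second observation. Cd79b was not listed for any cluster.

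**Figure D4:**
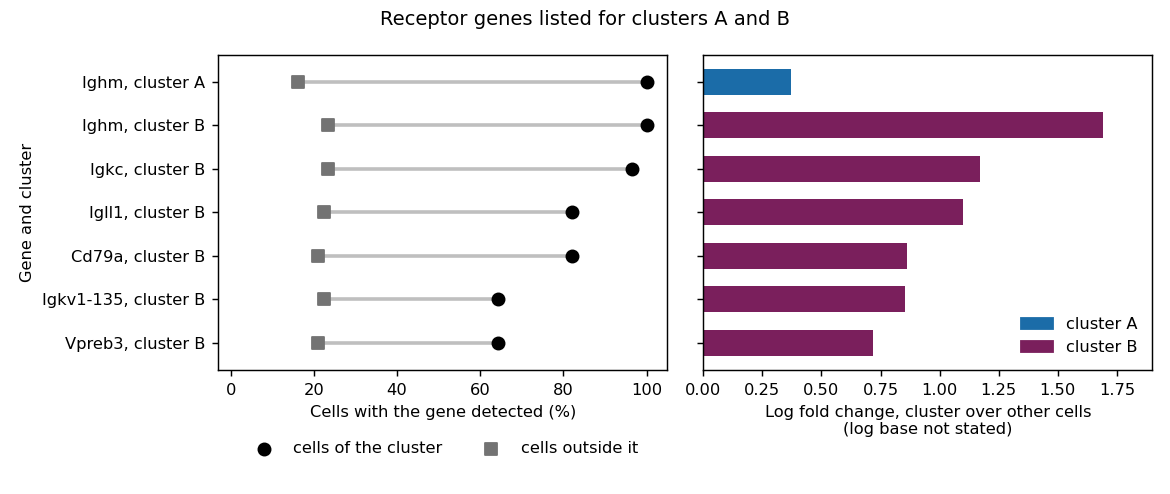
Left, percent of cells of the cluster (circles) and of cells outside it (squares) with each receptor gene detected; right, the authors' log fold change of the cluster over other cells, for Ighm in cluster A and 6 genes in cluster B. Ighm reaches 100% in both clusters with log fold changes of 0.37 in A and 1.69 in B, and the outside shares lie between 16.2% and 23.5%.

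B lineage factors stood beside the 4 genes in cluster B. Spib was detected in 92.9% of B and 22.4% of other cells (log fold change 0.94, adjusted p 9.59e-07), Lef1 in 82.1% and 19.9% (0.88, 0.000739) and Bach2 in 89.3% and 42.9% (1.21, 0.00683) by the authors' deposited table. Bach2 was listed for A too, in 97.8% and 36.3% of cells, with a log fold change of 0.29 and an adjusted p of 2.43e-15 by the authors' deposited table. Lef1 was also among the 5 genes nearest to both Cd79a and Igll1 in the B shares, at 1.0 and 2.5 percentage points, after Chst3, Igsf6 and Lmo1 at 0 and 1.5 points.

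Of the genes in the 7 B lineage lists, 6 passed in A, 7 in B, 4 in C, 0 in D and 2 in E by the authors' deposited table, against the backgrounds given above. In A these were Ighm, Bach2, Pik3cd, Xrcc5, Cd74 and Ltb, and in B the 4 genes, Spib, Lef1 and Bach2. In C they were Lyn, Erg, H2-Eb1 and Xbp1, and those in E included the progenitor gene Flt3, at a log fold change of 0.47 by the authors' deposited table. In D, where 0 passed, Sox4 and Myb were listed with adjusted p-values of 0.0586 and 1 by the authors' deposited table.

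All 39 genes detected in 0% of MMP-high cells were listed for A or B. Of them, 19 were listed for A, 30 for B, 10 for both and 0 for C, D or E by the authors' deposited table. In cluster A, Mmp8, Fgr and Lgals3 had the same shares as Ighm, 100% and 16.2%, and in cluster B, BC035044, Mmp8 and Lgals3 again had the same shares as Ighm, 100% and 23.5% by the authors' deposited table. At 100%, every cell of A and of B was counted as holding Ighm, Mmp8 and Lgals3 together. The same held for Fgr in A and BC035044 in B. If both tables use the same cells and the same detection limit, which is not stated, then a gene at 100% of A and of B and at 0% of MMP-high cells leaves no MMP-high cell in either cluster.

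Most listed markers of granulocytes stood on the same side as the 4 genes. Of 22 granulocyte genes, 13 passed toward MMP-low and 0 toward MMP-high, against 3.33% and 3.69% of all genes tested. The 13 ranged from 55.2% to 100% of MMP-low cells against 0% to 100% of MMP-high cells by the authors' deposited table. S100a9 and S100a8 led at log fold changes of 2.15 and 2.05, followed by Ltf (1.86) and Camp (1.83), and Mmp8 and Mmp9 were at 0% of MMP-high cells by the authors' deposited table. Csf3r and Prtn3 were listed toward MMP-high with adjusted p-values of 0.663 and 1 by the authors' deposited table. By cluster, 6 of the granulocyte genes passed in A, 8 in B, 2 in C, 1 in D and 0 in E by the authors' deposited table, against the cluster backgrounds given above. Those in C were Chil3 and Elane, the latter found in 82.4% of C and 0% of other cells, and the one in D was Csf3r by the authors' deposited table. Of 20 T and NK cell genes, 0 passed toward MMP-low and 1, Nkg7, toward MMP-high, near the shares of all genes tested. Of 6 plasmacytoid dendritic cell genes 0 were listed in the MMP comparison by the authors' deposited table, too few genes to set against those shares. In cluster C, 2 of these 6 were listed, of which Irf7 passed (98.5% of C and 80.8% of other cells) and Tcf4 did not by the authors' deposited table. Of the 20 T and NK cell genes, 3 were listed for C and 2 of them passed, where 3.07% of all genes tested passed. They were Cd4 (85.3% of C and 11.5% of other cells) and Nkg7 (97.1% and 63.5%) by the authors' deposited table. Of 12 erythroid genes, 2 (Car1 and Blvrb) passed toward MMP-low, and of 17 stem cell genes, 5 did, led by Ly6a (0.83) and Mllt3 (0.82) by the authors' deposited table. Both counts stand against 3.33% of all genes tested. Ly6a, which encodes the sorting marker Sca1, was detected in 100% of both groups, and Slamf1, which encodes CD150, in 76.2% of MMP-low cells against 28.6% of MMP-high cells by the authors' deposited table. Kit was not listed. The sort was for cells negative for lineage markers. The part of granulocyte RNA in the values of the 4 genes was not tested.

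The groups also differed in genes detected per library and in genes of the Y chromosome. Genes detected per library had a median of 2316.5 (514 to 3674) in MMP-low and 3795.5 (1130 to 5200) in MMP-high. Total reads per library lay closer, with medians of 1620811 (678723 to 5074155) in MMP-low and 1816108 (949570 to 4308287) in MMP-high. The 4 genes were at 0% in the group with more genes per library. Among libraries numbered above 85 in the labels the medians were 2083 in MMP-low and 1905 in MMP-high, against 2500 and 4080 up to 85. The 4 genes could not be split this way, as they have no value per library, and it is not stated which libraries gave the 224 cells kept. The series states a minimum of 5500 genes for these cells, which 0 of the 248 libraries reach in the quality table, so its gene counts are not on the basis of that filter. Of 4 Y chromosome genes, 3 (Eif2s3y, Ddx3y and Uty) passed toward MMP-low, against 3.33% of all genes tested. Eif2s3y was detected in 89.5% of MMP-low cells against 12.6% of MMP-high cells by the authors' deposited table, and Ddx3y was listed for A and Uty for B. Different animals or sorts behind the groups cannot be told apart from MMP in these tables.

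In the authors' other tables the 4 genes appeared seldom. Cd79a was in the authors' list of 99 genes headed as upregulated in MMP-low and in dHSC, as was Vpreb3, while Ighm, Igkc and Igll1 were not. Of the B lineage lists, 6 genes stood there, Bach2, Cd52, Cd79a, Ltb, Pik3cd and Vpreb3. The list held 10 of the 39 genes detected in 0% of MMP-high cells, which is 25.6% of the 39 and 10.1% of the 99, and 92 of the 539 genes that passed toward MMP-low (17.1%). None of the 436 terms of processes, components and functions in the authors' enrichment tables held any of the 4. Among 42 terms of transcription factors, Igll1 stood in a RUNX1 set (100 of 1294 genes, adjusted p 2.21e-05) and Cd79a in a RELA set (46 of 484 genes, adjusted p 0.00013), both on the MMP-low side of the authors' deposited table.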

How the data were processed

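RNA of single HSCs was copied on the Fluidigm C1 system (SMART-Seq v4 kit) and sequenced as single reads of 100 bases, per the labels' protocols. Reads were handled with STAR 2.5.2b and bcl2fastq 2.17.1.14 on mm10, per the submitters' processing notes. The settings, the annotation and any normalization were not given in the sources used here. Read and gene counts per library were deposited by the authors, with 678723 to 5074155 total reads. The authors' deposited tables give a p-value and adjusted p-value per gene, the latter equal to the p-value times 16203 and at most 1, so 16203 was taken as the number of genes tested. The authors' deposited tables also give detection as a fraction of cells, turned into percent here, and an average log fold change in an unstated base. Detection limits and any filling in of values are not stated, and each would move these numbers. The MMP comparison was made with MAST, per the file headers.

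Titles gave each library its group. With 1 sample per group, no test was made, and the tools (Python 3.11.15, pandas 2.3.3) ordered, matched and counted the authors' values, after a check on simulated tables. Symbols were matched ignoring case. The 4 genes, the 13 gene lists and the rule for named genes were chosen with earlier results of these data known. Named were the 4 genes, every listed gene of the 7 B lineage lists, up to 4 of each other list by fold, and the 5 nearest genes of each of the 4 by Euclidean distance in the pair of percentages. Sequences were read from GENCODE vM21 transcripts on GRCm38 and from RefSeq promoters on GRCm38.p6. Some genes of the lists are counted but not reported here by name. Other thresholds were tried as alternatives.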

Additional observations from a re-analysis of the deposited data

How the results depend on the processing

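Called genes higher in MMP-low numbered 539, and 949 with every listed gene taken, while an adjusted p under 0.01 left 486. The 39 genes at 0% of MMP-high cells became 53 at up to 1%, 83 at up to 5%, and stayed 39 with an adjusted p under 0.05. Of the B lineage lists, 14 genes stood toward MMP-low, 20 with every listed gene and 7 when found in over 1% of both groups; toward MMP-high 3 became 6 with every listed gene. With every listed gene, the cluster counts went from 7 to 11 in B, from 0 to 2 in D and from 2 to 4 in E. Exact matching of symbols found 0 of the 4 genes in each table, which write symbols in capitals. The difference in median genes detected, MMP-high minus MMP-low, was 1479, and it turned to -178 in libraries numbered above 85; it was 1580 up to 85 and 1286 over 600000 mapped reads. Why it turned was not tested. No paired analysis was possible because the numbers in the titles name single cells and no test was made. Leaving out a replicate does not apply with 1 sample per group. Cell numbers behind a percentage are not stated, and no interval was computed for one.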
